A study of Mus musculus with 24 samples.

Results

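Oxidative phosphorylation runs on 5 protein complexes of the inner mitochondrial membrane, and the nuclear genes for their subunits are described here across the retinas of 8 inbred mouse strains. The members were every gene marked protein coding in the normalised count table whose symbol follows the naming of complex I subunits (Nduf followed by a, b, c, s or v and a digit), succinate dehydrogenase (Sdh followed by a to d), Uqcr, Cox 4 to 8, or Atp5. Assembly factors of the Nduf-af kind were left out. This gave 84 of the 28,802 genes in the table, with 36 in complex I, 4 in complex II, 8 in complex III, 19 in complex IV and 17 in complex V. Ndufa4 and Ndufa4l2 were counted with complex IV, where the Ndufa4 protein is known to sit. Symbols and positions are those of the table, on GRCm38.

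Complexes I to IV pass electrons from NADH and succinate to oxygen and, except for complex II, pump protons, and complex V, the ATP synthase, uses the returning protons to make ATP. Mitochondrial DNA encodes part of the core of every complex but complex II, and nuclear genes encode the remaining subunits. Photoreceptors pack mitochondria into their inner segments, and the retina is known for its high use of oxygen.

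The RNA came from the retinas of 24 mice, 3 of each strain, which were taken at postnatal day 28 and are all labelled wild type. The 5 classical strains were 129S1/Svlmj, A/J, C57BL/6J, NOD/ShiLtJ and NZO/HlLtJ, and the 3 wild-derived strains were CAST/EiJ, PWK/PhJ and WSB/EiJ. Ribosomal RNA was depleted from the total RNA before library construction, and the question put to the members was how their levels differ between strains. No treatment, sex or batch is given in the labels. Read totals, worked out by taking the most frequent low cpm value as 1 read, were 5.76e+07 to 7.82e+07 in a library (median 6.89e+07) and may differ from the number of reads sequenced, and some genes hold fractions of a read. On these totals 3 reads, the upper limit that a count of 0 allows, came to between 0.0384 and 0.0521 cpm. This unit, used throughout, scales the reads of a gene to the total reads of its library. The limit covers counting error alone. Pearson correlations of log2(cpm + 1) over the genes tested were between 0.989 and 0.998 for the 24 pairs of libraries within a strain and between 0.950 and 0.986 for the 252 pairs from different strains.

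The tissue label was compared with marker genes. Sag, rod arrestin, averaged 1639 cpm and the 8 rod markers together 9619 to 12896 cpm in a library, while the 12 skeletal muscle markers together stayed between 1.27 and 5.16 cpm, with Acta1 the most abundant at 0.547 cpm and 7 of the 12 at 0 in some library. Markers of the lens were present in every library and set 3 libraries apart. Their summed level was 1876 cpm in 129S1/Svlmj replicate 2, 2158 cpm in NOD/ShiLtJ replicate 2 and 256 cpm in C57BL/6J replicate 2, against at most 103 cpm in any other library.

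Of the 84 members, 78 reached the mean of 0.5 cpm needed for testing, and the 6 below it all belong to complex IV. Calls between strains used limma's moderated F-test over the 8 strain means of log2(cpm + 1). A member was called at a Benjamini-Hochberg adjusted p under 0.01 over all 16,400 genes tested, with a fold minimum. The highest strain mean had to be at least 1.5-fold the lowest, taken on cpm + 1 and not on cpm. Cox7c, with means of 3.91 cpm in WSB/EiJ and 2.33 cpm in PWK/PhJ, passed the F-test but did not reach this minimum. By the F-test alone 33 of the 78 members passed (42.3%), against 70.6% of all genes tested. With the fold minimum 8 members were called (10.3%), against 30.6% of all genes. Among genes averaging at least 5 cpm, 5 of 70 members were called (7.14%), against 25.6% of genes at that level. The difference between the highest and lowest strain mean had a median of 0.30 over the 78 members and 0.43 over all genes tested, on the log2(cpm + 1) scale, which understates differences of genes with few counts. At 5 cpm and above the medians were 0.29 for members and 0.39 for all genes. In whole retina, fewer cells of a type and less RNA per cell cannot be told apart.

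Among the 8 called members were Cox7a2l, Atp5g1, Cox4i2, Sdhc, Ndufs5, Atp5e and Cox6c, in order of the difference between their highest and lowest strain. The 8 came from 4 complexes, with 2 in complex I, 1 in complex II, 3 in complex IV and 2 in complex V. Complex III had 0 called members and also 0 by the F-test alone, although 4 of its 8 members had an unadjusted limma p under 0.05.

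**Figure D1:**
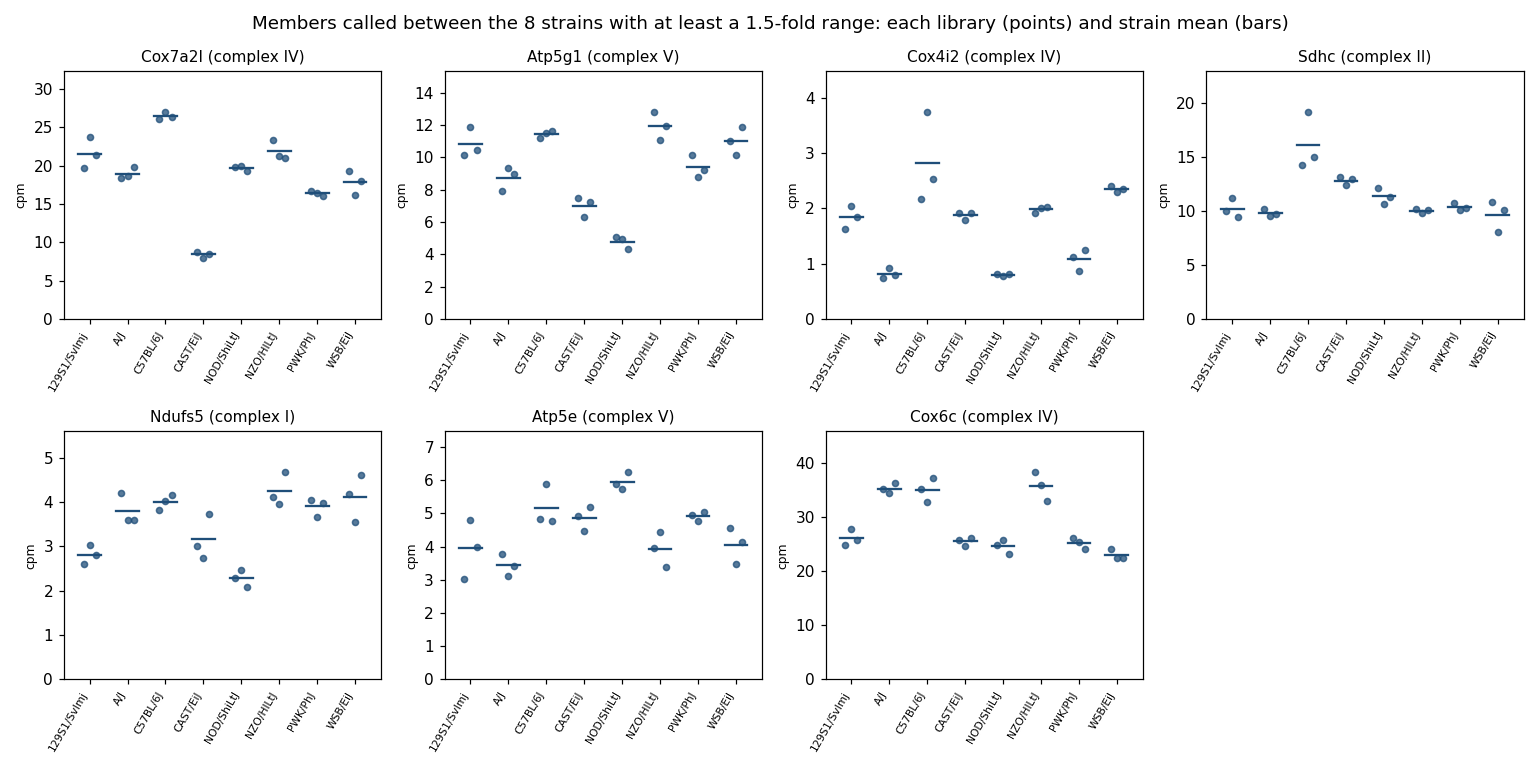
Levels in cpm of called members in each of the 24 libraries (points), by strain, with the strain mean as a bar. Cox7a2l stood between 8.02 and 8.81 cpm in CAST/EiJ and between 26.1 and 27.0 cpm in C57BL/6J, and Atp5g1 between 4.33 and 5.06 cpm in NOD/ShiLtJ.

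Each strain was also compared with the mean of the 7 others, and a member was called higher or lower at an adjusted p under 0.01 and a difference of at least 0.32 on the log2(cpm + 1) scale. These 8 comparisons share libraries, so they are given side by side. Among the 5 classical strains, C57BL/6J had 6 members higher (background 5.13% of all genes tested) and 1 lower (3.88%), A/J had 2 higher (5.39%) and 2 lower (4.20%), and NOD/ShiLtJ had 1 higher (5.48%) and 3 lower (3.50%). NZO/HlLtJ had 2 higher (4.23%) and 0 lower by limma (4.96%), with 5 members lower at an unadjusted p under 0.05. In 129S1/Svlmj limma called 0 members higher (4.87%) and 0 lower (4.21%), with 9 higher and 10 lower at an unadjusted p under 0.05, and 4 higher and 3 lower at the adjusted threshold when no fold minimum was set. Single libraries moved some counts. Called members, higher and lower together, numbered 2 in 129S1/Svlmj without its replicate 1 and 1 without its replicate 2, 2 in A/J without its replicate 3, and 1 in NZO/HlLtJ without its replicate 1.

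In the wild-derived strains, where more genes were called, CAST/EiJ had 3 members higher (8.16%) and 5 lower (12.6%), PWK/PhJ had 2 higher (10.2%) and 5 lower (10.3%), and WSB/EiJ had 1 higher (4.97%) and 5 lower (6.71%). Over the 8 comparisons there were 17 higher and 21 lower calls, which fell on 23 members, and in every call all 3 libraries of the strain lay on the called side of the mean of the other strains. The share of calls that were higher was 44.7% as given, 55.6% with median-ratio scaling of the libraries and 52.8% with quantile normalization, so the balance of higher and lower calls turned with the scaling.

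**Figure D2:**
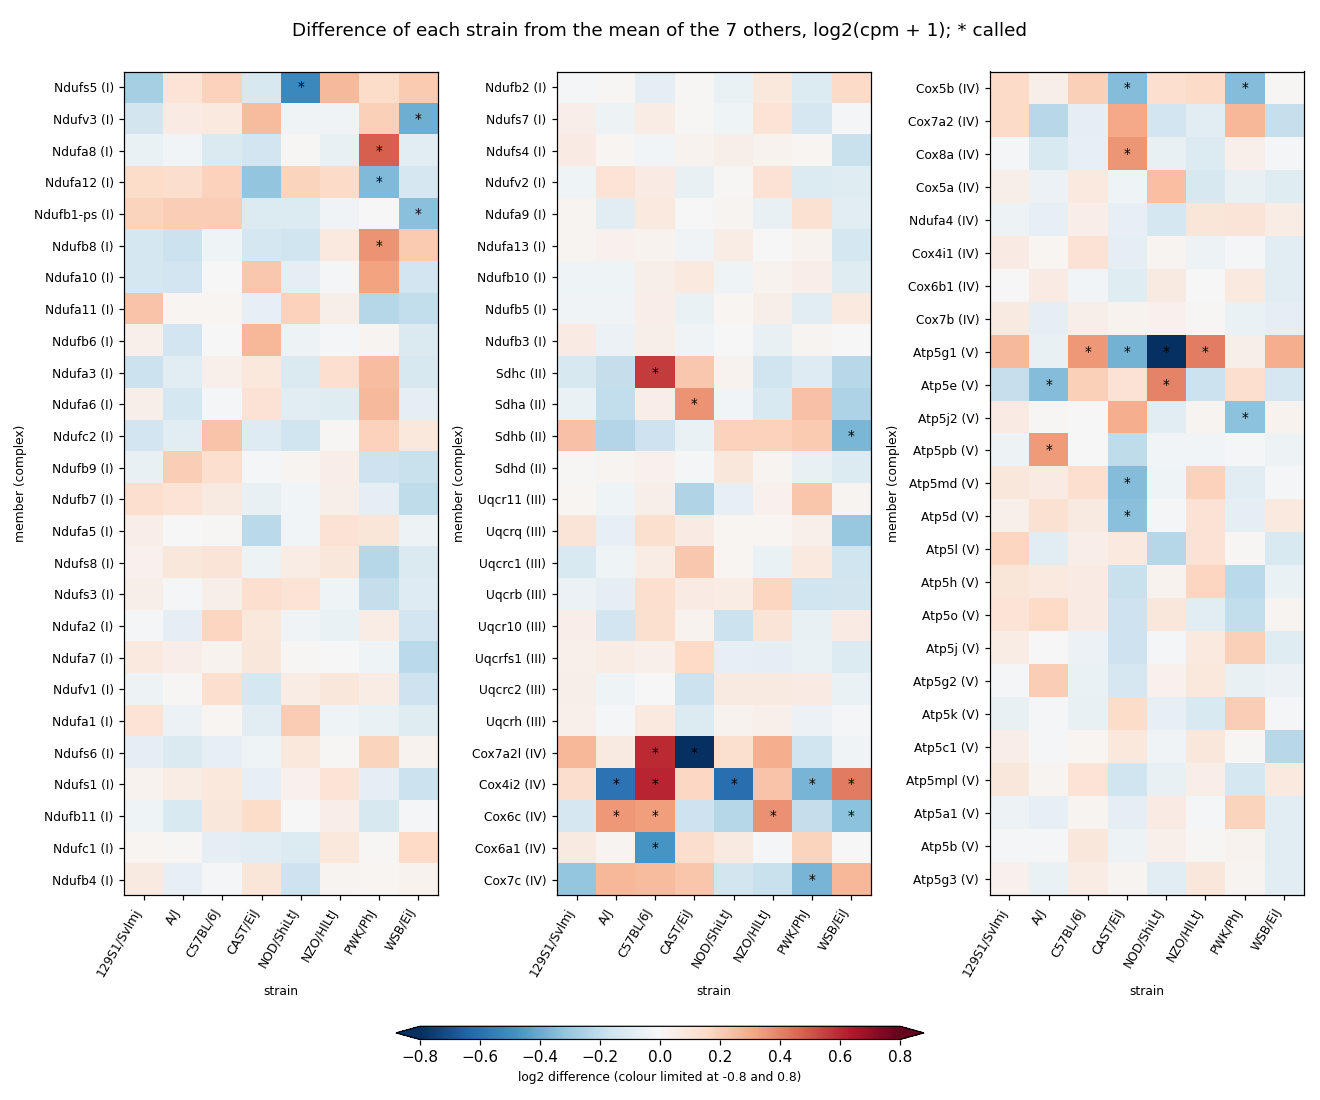
Difference of each strain from the mean of the 7 others for members tested, on the log2(cpm + 1) scale, with members grouped by complex and called differences marked by an asterisk. The largest differences were -1.17 for Cox7a2l in CAST/EiJ and -0.92 for Atp5g1 in NOD/ShiLtJ.

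Complex I takes electrons from NADH and hands them to ubiquinone. Of its 36 members, 13 passed the F-test alone and 2 were called, Ndufs5 among them, against 70.6% and 30.6% of all genes tested, and the median difference between highest and lowest strain was 0.28 on the log2(cpm + 1) scale.

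Ndufs5, an accessory subunit on the intermembrane side, was a low and variable member. It measured 2.61, 3.03 and 2.80 in 129S1/Svlmj, 4.20, 3.60 and 3.59 in A/J, 3.82, 4.01 and 4.17 in C57BL/6J, 2.29, 2.47 and 2.08 in NOD/ShiLtJ, and 4.12, 3.95 and 4.67 in NZO/HlLtJ cpm, with replicates in order. The wild-derived values were 3.01, 2.75 and 3.73 in CAST/EiJ, 4.17, 3.55 and 4.60 in WSB/EiJ, and 4.05, 3.67 and 3.97 in PWK/PhJ cpm. NOD/ShiLtJ lay below all other libraries, 129S1/Svlmj came next and overlapped CAST/EiJ, and the other strains overlapped one another at the upper end. The NOD/ShiLtJ difference was -0.51 (SE 0.07, adjusted p = 2.06e-06) on the log2(cpm + 1) scale, but Ndufs5 shares sequence with an expressed pseudogene copy and the call did not survive adding that copy, as given with the copies.

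Among the other subunits of complex I, Ndufa8, an accessory subunit facing the intermembrane space, was higher in PWK/PhJ, with 10.6, 9.86 and 8.49 cpm there against 5.44 to 7.72 cpm in the libraries of the other strains. PWK/PhJ did not overlap any of them, and the difference was 0.48 (SE 0.06, adjusted p = 1.49e-06). Ndufs1, the iron-sulfur subunit with the highest mean of the complex (31.9 cpm), passed the F-test (adjusted p = 0.00138) with strain means within 0.25 on the log2(cpm + 1) scale. Ndufb3, an accessory subunit of the membrane arm, varied least of all 78 members tested, with a difference of 0.11 between its highest and lowest strain and 6.66 to 8.76 cpm over the 24 libraries. Its test did not pass (adjusted p = 0.894).

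A further 4 complex I members, named after their values were seen, were called in a single strain. PWK/PhJ had higher Ndufb8, a membrane-arm subunit (26.2, 26.0 and 24.6 cpm, difference 0.36), and lower Ndufa12, an accessory subunit near the NADH-oxidising arm (5.96, 6.27 and 5.35 cpm, difference -0.35). The PWK/PhJ libraries overlapped WSB/EiJ for Ndufb8 and CAST/EiJ for Ndufa12. WSB/EiJ had lower Ndufv3, an accessory subunit of the NADH-oxidising arm (21.7, 18.1 and 18.1 cpm, difference -0.39), and lower Ndufb1-ps (6.64, 4.80 and 5.35 cpm, difference -0.34), which carries a pseudogene suffix in its symbol although the table marks it protein coding. Both overlapped libraries of another strain. Adjusted p-values of these 4 differences were 7.72e-06, 3.03e-05, 1.81e-05 and 1.06e-04, in the order named.

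Per kilobase of exon, complex I members spanned 1.68 to 16.9 cpm per kb, with Ndufb4 lowest and Ndufb11 highest, and a median of 6.22 cpm per kb. Here and below, the length counts every base in any annotated exon of a gene. It can exceed the length of a transcript, so ranks between genes are uncertain. Ndufb4 and Ndufb11 were picked out after their values were seen, and no strain had a call for either. A copy of Ndufb4, Ndufb4c, held 10.2 cpm beside the 3.22 cpm of Ndufb4, so the low rank of Ndufb4 is uncertain.

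Complex II, succinate dehydrogenase, joins the citric acid cycle to the respiratory chain and has no subunit encoded in mitochondrial DNA. Of its 4 members 3 passed the F-test alone, Sdha, Sdhb and Sdhc, and Sdhc was also past the fold minimum (70.6% and 30.6% of all genes tested). Sdhc, a membrane anchor subunit that binds heme, measured 10.1, 11.2 and 9.47 in 129S1/Svlmj, 10.2, 9.58 and 9.73 in A/J, 14.3, 19.2 and 15.0 in C57BL/6J, 12.2, 10.6 and 11.3 in NOD/ShiLtJ, and 10.2, 9.83 and 10.1 in NZO/HlLtJ cpm. Wild-derived libraries gave 13.2, 12.4 and 13.0 in CAST/EiJ, 10.8, 8.10 and 10.2 in WSB/EiJ, and 10.8, 10.1 and 10.3 in PWK/PhJ cpm. C57BL/6J lay above all other libraries, and CAST/EiJ above those of the 6 remaining strains, which overlapped. The C57BL/6J difference was 0.56 (SE 0.07, adjusted p = 1.03e-06), and the difference between the highest and the lowest strain was 0.68 on the log2(cpm + 1) scale (adjusted p = 4.66e-06). C57BL/6J replicate 2, with 19.2 cpm and a raised lens marker sum, set part of that size. Without it the range of strain means was 0.56 on the same scale (adjusted p = 1.96e-05), under the fold minimum in cpm + 1. The range was also 0.56 with all 3 lens-rich libraries left out (adjusted p = 8.73e-06), and the part of lens tissue in this was not tested.

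Sdha, the flavoprotein that oxidises succinate, had the highest mean of complex II (66.3 cpm) and was higher in CAST/EiJ, with 85.0, 77.6 and 83.0 cpm there and 49.4 to 83.0 cpm in the other strains. CAST/EiJ overlapped PWK/PhJ, where Sdha measured 83.0, 75.5 and 69.7 cpm, and the CAST/EiJ difference was 0.36 (SE 0.06, adjusted p = 1.53e-05). Sdhb, the iron-sulfur subunit, was lower in WSB/EiJ, where its 8.58, 7.24 and 8.47 cpm lay just below the 8.62 to 12.7 cpm of the other strains (difference -0.36 (SE 0.05, adjusted p = 2.88e-06)). Sdhb was named after its values were seen. Sdhd, the other membrane anchor, read 8.54 to 11.8 cpm over the 24 libraries and did not pass the F-test (adjusted p = 0.561), with strain means within 0.18. By strain mean, Sdha was highest in CAST/EiJ and Sdhc in C57BL/6J, also when any 1 of the 24 libraries was left out. All 4 subunits were lowest in WSB/EiJ, but without WSB/EiJ replicate 2 the lowest mean was in A/J for Sdha (58.1 cpm) and Sdhc (9.85 cpm) and in PWK/PhJ for Sdhd (9.99 cpm). A/J was also lowest for Sdhc without A/J replicate 1 (9.66 cpm), and PWK/PhJ for Sdhd without PWK/PhJ replicate 2 (9.61 cpm).

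Complex III carries electrons from ubiquinol to cytochrome c. None of its 8 members passed the F-test, whose background is given above, and their strain means differed by a median of 0.28 and at most 0.40 on the log2(cpm + 1) scale. Uqcrc1, a core protein with the highest mean of the complex, ran from 23.7 to 35.5 cpm, with 35.5, 32.9 and 33.1 cpm in CAST/EiJ at the upper end and 31.9, 23.7 and 25.2 cpm in WSB/EiJ. The WSB/EiJ libraries spread over most of that range, and the F-test gave an adjusted p of 0.0192. Uqcrh, the hinge protein that helps cytochrome c to dock, varied least, within 18.0 to 22.6 cpm and with strain means within 0.17 (adjusted p = 0.238). Per kilobase the complex III members lay between 4.36 and 16.5 cpm per kb, with a median of 9.47.

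Complex IV, cytochrome c oxidase, passes the electrons to oxygen. Its nuclear subunits include tissue isoforms, and 8 of its 13 tested members passed the F-test alone and 3 were called, where all genes tested gave 70.6% and 30.6%. Cox7a2l, which tethers complex III to complex IV in respiratory supercomplexes, varied most of all members. It measured 19.7, 23.7 and 21.4 in 129S1/Svlmj, 18.4, 18.7 and 19.8 in A/J, 26.1, 27.0 and 26.3 in C57BL/6J, 19.9, 20.0 and 19.3 in NOD/ShiLtJ, and 23.3, 21.3 and 21.0 in NZO/HlLtJ cpm. Wild-derived libraries measured 8.81, 8.02 and 8.53 in CAST/EiJ, 19.3, 16.2 and 18.1 in WSB/EiJ, and 16.7, 16.5 and 16.0 in PWK/PhJ cpm. C57BL/6J stood above and CAST/EiJ far below every other library, and the remaining strains overlapped in part between 16.0 and 23.7 cpm. Strain means of 26.5 ± 0.430 cpm (SD, n = 3) in C57BL/6J and 8.45 ± 0.402 cpm (SD, n = 3) in CAST/EiJ lay 1.54 apart on the log2(cpm + 1) scale (adjusted p = 3.77e-14). The differences from the other strains were -1.17 (SE 0.05, adjusted p = 1.21e-15) in CAST/EiJ and 0.60 (SE 0.05, adjusted p = 7.31e-10) in C57BL/6J. A pseudogene copy, Gm6969, shares part of the sequence of Cox7a2l, and the C57BL/6J value is uncertain for that reason, as given with the copies.

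Cox4i2, the isoform of subunit 4 known from lung and from low oxygen, was the lowest of the called members, at a mean of 1.70 cpm. It measured 1.63, 2.04 and 1.85 in 129S1/Svlmj, 0.747, 0.923 and 0.791 in A/J, 2.17, 3.74 and 2.52 in C57BL/6J, 0.814, 0.779 and 0.823 in NOD/ShiLtJ, and 1.92, 2.01 and 2.02 in NZO/HlLtJ cpm. Wild-derived values were 1.92, 1.78 and 1.92 in CAST/EiJ, 2.41, 2.30 and 2.34 in WSB/EiJ, and 1.12, 0.870 and 1.249 in PWK/PhJ cpm. The libraries split into A/J, NOD/ShiLtJ and PWK/PhJ, and the 5 other strains at 1.63 cpm and above, with no overlap between these sets of strains. C57BL/6J and WSB/EiJ were at the top and overlapped each other. Differences from the other strains were 0.61 (SE 0.07, adjusted p = 1.08e-06) in C57BL/6J, 0.42 (SE 0.07, adjusted p = 1.04e-04) in WSB/EiJ, -0.59 (SE 0.07, adjusted p = 1.79e-06) in A/J, -0.60 (SE 0.07, adjusted p = 1.19e-06) in NOD/ShiLtJ and -0.37 (SE 0.07, adjusted p = 2.19e-04) in PWK/PhJ. The log2(cpm + 1) scale understates these differences. Without C57BL/6J replicate 2, a lens-rich library with 3.74 cpm of Cox4i2, the C57BL/6J difference was 0.44 and that of WSB/EiJ also 0.44, both still called, and the range of strain means was 0.89 in place of 1.06. Cox4i1, the isoform found in most tissues, held 29.1 to 42.1 cpm and did not pass the F-test (adjusted p = 0.392). Per kilobase Cox4i1 stood at 22.6 cpm per kb and Cox4i2 at 2.15 cpm per kb.

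Cox6c, a small membrane subunit, took 2 separate levels. It measured 24.9, 27.9 and 25.7 in 129S1/Svlmj, 35.2, 34.4 and 36.3 in A/J, 35.1, 32.9 and 37.1 in C57BL/6J, 24.8, 25.8 and 23.2 in NOD/ShiLtJ, and 38.3, 35.9 and 33.1 in NZO/HlLtJ cpm. Wild-derived libraries held 25.7, 24.7 and 26.2 in CAST/EiJ, 24.2, 22.5 and 22.5 in WSB/EiJ, and 26.2, 25.3 and 24.1 in PWK/PhJ cpm. A/J, C57BL/6J and NZO/HlLtJ lay at 32.9 cpm and above, and the 5 other strains at 27.9 cpm and below, with WSB/EiJ lowest but overlapping NOD/ShiLtJ and PWK/PhJ. The differences were 0.35 (SE 0.04, adjusted p = 1.64e-06) in A/J, 0.33 (SE 0.04, adjusted p = 2.66e-06) in C57BL/6J, 0.37 (SE 0.04, adjusted p = 7.72e-07) in NZO/HlLtJ and -0.33 (SE 0.04, adjusted p = 2.65e-06) in WSB/EiJ. Against the other classical strains alone, the A/J difference was 0.23 (adjusted p = 0.000611), below the fold minimum.

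Cox6a1, the form of subunit 6a found outside heart and muscle, was lower in C57BL/6J, with 16.1, 17.9 and 16.8 cpm there and 21.2 to 26.9 cpm in the other strains. The groups did not overlap, and the difference was -0.47 (SE 0.06, adjusted p = 2.28e-06). With the sequence cut into short words, 18.5% of the words of Cox6a1 also occur elsewhere, against 16.6% for Cox7a2l. No copy of Cox6a1 met the limit used in the search for copies, so none was added. The C57BL/6J value of Cox6a1 is uncertain for that reason, and the part of shared sequence in it was not tested. Cox8a, the common form of subunit 8, was higher in CAST/EiJ, with 42.0, 38.5 and 43.4 cpm against 28.5 to 37.5 cpm elsewhere. CAST/EiJ stood above every other library, by 0.35 (SE 0.06, adjusted p = 6.25e-05). Cox7a2, the common form of subunit 7a, passed the F-test alone (adjusted p = 1.41e-04), with 16.2, 15.7 and 16.7 cpm in CAST/EiJ, the highest strain, and 11.6, 11.4 and 11.5 cpm in A/J, the lowest. Those strains did not overlap, and the strain means lay 0.46 apart on the log2(cpm + 1) scale.

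Cox7c, a small membrane subunit, was lower in PWK/PhJ by -0.37 (SE 0.05, adjusted p = 1.81e-06), with 2.52, 2.17 and 2.30 cpm there, 2.28, 2.69 and 2.40 cpm in 129S1/Svlmj, 2.72, 2.73 and 2.80 cpm in NZO/HlLtJ and 4.11, 3.66 and 3.96 cpm in WSB/EiJ. The highest strain means were nearly tied, at 3.909 cpm in WSB/EiJ and 3.907 cpm in A/J. PWK/PhJ overlapped 129S1/Svlmj. Against the classical strains alone the PWK/PhJ difference was -0.31 (adjusted p = 3.20e-05), below the fold minimum. Cox5b, a zinc-binding subunit that was named after its values were seen, was lower in CAST/EiJ (8.54, 7.56 and 7.77 cpm, difference -0.35, adjusted p = 3.08e-05) and PWK/PhJ (8.77, 7.81 and 7.35 cpm, difference -0.34, adjusted p = 3.39e-05). These strains overlapped each other and lay below all libraries of the other strains. Both Cox7c and Cox5b share sequence with copies, and their calls were lost when the copies were added.

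Cox6b1, which clamps the dimer on the intermembrane side, Cox7b, a small membrane subunit, and Ndufa4 did not pass the F-test (adjusted p = 0.246, 0.627 and 0.143). Over the 24 libraries they ran from 18.2 to 24.0, 14.5 to 20.3 and 25.4 to 34.7 cpm. Cox7b had the smallest difference between strains in complex IV, 0.13 on the log2(cpm + 1) scale.

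The partner isoforms of these subunits averaged under the 0.5 cpm needed for testing. Cox6b2, known from testis, averaged 0.423 cpm and ran from 0.276 to 0.744 cpm. Cox7a1 and Cox8b, the isoforms of heart and skeletal muscle, averaged 0.222 and 0.181 cpm, and Ndufa4l2, known to rise in low oxygen, 0.186 cpm. Cox6a2, the muscle form of subunit 6a, and Cox7b2, a testis form, averaged 0.0165 and 0.0121 cpm and were at 0 in some libraries. Their highest libraries held 0.0960 and 0.0698 cpm, a few reads. Cox8c has no entry in the table and was not analysed here. Per kilobase of annotated exon, Cox8a had the highest value of all members, 53.9 cpm per kb over 619 bases. Atp5b stood at 48.4 cpm per kb over 4237 bases, so the rank of Cox8a depends on which exons are annotated. Cox8b stood at 0.502, and Cox6a1 at 32.8 against 0.0243 for Cox6a2.

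Complex V, the ATP synthase, had 9 of 17 members past the F-test alone and 2 called, Atp5g1 and Atp5e, beside 70.6% and 30.6% of all genes. Atp5g1, Atp5g2 and Atp5g3 encode the same mature subunit c, which forms the rotor ring in the membrane, behind different import sequences. Atp5g1 measured 10.2, 11.9 and 10.4 in 129S1/Svlmj, 7.90, 9.33 and 8.97 in A/J, 11.2, 11.5 and 11.7 in C57BL/6J, 5.06, 4.95 and 4.33 in NOD/ShiLtJ, and 12.8, 11.1 and 11.9 in NZO/HlLtJ cpm. In the wild-derived strains its values were 7.49, 6.32 and 7.22 in CAST/EiJ, 11.0, 10.2 and 11.9 in WSB/EiJ, and 10.2, 8.76 and 9.23 in PWK/PhJ cpm. NOD/ShiLtJ lay below all other libraries, CAST/EiJ was next and lay below the 6 remaining strains, and C57BL/6J, NZO/HlLtJ, WSB/EiJ and 129S1/Svlmj overlapped at the top. Strain means were 4.78 ± 0.395 cpm (SD, n = 3) in NOD/ShiLtJ and 11.9 ± 0.846 cpm (SD, n = 3) in NZO/HlLtJ, 1.16 apart on the log2(cpm + 1) scale (adjusted p = 4.92e-11). Differences from the other strains were -0.92 (SE 0.06, adjusted p = 2.60e-11) in NOD/ShiLtJ, -0.38 (SE 0.06, adjusted p = 1.13e-05) in CAST/EiJ, 0.35 (SE 0.06, adjusted p = 8.08e-05) in C57BL/6J and 0.41 (SE 0.06, adjusted p = 1.02e-05) in NZO/HlLtJ. With a copy of Atp5g1 added, NOD/ShiLtJ alone kept its call, at a smaller difference, as given with the copies.

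The other subunit c genes did not pass the F-test. Atp5g3 held 12.4 to 18.2 cpm, with 15.6, 14.3 and 14.7 cpm in NOD/ShiLtJ and 16.0, 17.2 and 16.9 cpm in NZO/HlLtJ. It had the smallest difference between strains in complex V, 0.15 (adjusted p = 0.445). Atp5g2 averaged 0.808 cpm (adjusted p = 0.0779), and its value is uncertain because a copy, Gm10175, held 16.7 cpm. Per kilobase of annotated exon Atp5g3 stood at 7.23, Atp5g1 at 1.91 and Atp5g2 at 0.482 cpm per kb, over 2181, 4912 and 1675 bases. The mean levels of Atp5g3 and Atp5g1 were 15.8 and 9.39 cpm, so part of their gap per kilobase comes from the annotated lengths.

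Atp5e, the epsilon subunit of the central stalk, measured 3.04, 4.81 and 3.99 in 129S1/Svlmj, 3.79, 3.11 and 3.40 in A/J, 4.82, 5.87 and 4.78 in C57BL/6J, 5.89, 5.72 and 6.24 in NOD/ShiLtJ, and 3.97, 4.46 and 3.39 in NZO/HlLtJ cpm. Wild-derived libraries had 4.93, 4.47 and 5.21 in CAST/EiJ, 4.55, 3.48 and 4.15 in WSB/EiJ, and 4.95, 4.78 and 5.05 in PWK/PhJ cpm. NOD/ShiLtJ was highest and overlapped C57BL/6J, and A/J was lowest and overlapped 129S1/Svlmj, NZO/HlLtJ and WSB/EiJ. The differences were 0.40 (SE 0.08, adjusted p = 7.03e-04) in NOD/ShiLtJ and -0.35 (SE 0.08, adjusted p = 0.00218) in A/J, and the strain means lay 0.65 apart on the log2(cpm + 1) scale (adjusted p = 1.77e-04). Without NOD/ShiLtJ replicate 3 the NOD/ShiLtJ difference of Atp5e was 0.37 with an adjusted p of 0.0103, just above the threshold.

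Another 4 complex V members, named after their values were seen, were called in a single strain. Atp5pb, subunit b of the peripheral stalk, was higher in A/J, with 38.7, 41.7 and 43.8 cpm against 28.5 to 36.0 cpm elsewhere (difference 0.34, adjusted p = 2.76e-06). Atp5d, the delta subunit of the central stalk, was lower in CAST/EiJ, with 10.7, 10.4 and 10.5 cpm against 11.7 to 15.4 cpm elsewhere (difference -0.34, adjusted p = 4.03e-05). Neither group overlapped the other strains. Atp5md, a small membrane subunit, was also lower in CAST/EiJ (3.69, 3.59 and 4.74 cpm, difference -0.35, adjusted p = 2.46e-05), where replicates overlapped other strains, and the call was lost when its copy was added. Atp5j2, subunit f of the membrane part, was lower in PWK/PhJ, with 9.81, 9.62 and 8.82 cpm against 9.94 to 15.4 cpm elsewhere (difference -0.33, adjusted p = 7.59e-04).

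Atp5b, the catalytic beta subunit, was the member with the highest mean, 205 cpm and 48.4 cpm per kb, and did not pass the F-test (adjusted p = 0.336). Its values were 191, 218 and 202 in 129S1/Svlmj, 201, 197 and 211 in A/J, 207, 238 and 206 in C57BL/6J, 218, 203 and 208 in NOD/ShiLtJ, and 213, 205 and 200.3 in NZO/HlLtJ cpm. In the wild-derived strains they were 203, 198 and 198 in CAST/EiJ, 211, 176 and 195 in WSB/EiJ, and 215, 205 and 205 in PWK/PhJ cpm. CAST/EiJ lay just below NOD/ShiLtJ, PWK/PhJ and C57BL/6J, the other strains overlapped, and the strain means lay within 0.16 on the log2(cpm + 1) scale.

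The summed level of each complex was compared as a description, without a test. Complex I summed to between 367 and 464 cpm in a library, complex II to between 73.3 and 118 cpm, complex III to between 104 and 132 cpm, complex IV to between 212 and 275 cpm and complex V to between 476 and 602 cpm. WSB/EiJ replicate 2 was the lowest library for each of the 5 sums, and it also had the lowest total over all genes of the table (332472 cpm, where the highest library had 366570). The ratio of the highest to the lowest strain mean was 1.13 for complex I, 1.10 for complex III, 1.10 for complex IV and 1.08 for complex V. C57BL/6J was highest and WSB/EiJ lowest in each of these 4. In complex I this order held in every alternative run, except that 129S1/Svlmj was highest with the median of log2 levels in place of the sum.

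In complexes III, IV and V the order depended on single libraries and on the measure. The highest strain was NZO/HlLtJ in III and IV and PWK/PhJ in V without C57BL/6J replicate 2, which is lens-rich, 129S1/Svlmj in IV and V without its replicate 1, and PWK/PhJ in III and V without its replicate 3. It was PWK/PhJ in V with copies added, and CAST/EiJ in III and NZO/HlLtJ in IV and V with the median of log2 levels. The lowest strain was A/J in III and CAST/EiJ in IV and V without WSB/EiJ replicate 2, and CAST/EiJ in IV and V without its own replicate 3. Median-ratio scaling put A/J lowest in III and NOD/ShiLtJ in IV, quantile normalization NOD/ShiLtJ in IV and CAST/EiJ in V, and the median of log2 levels PWK/PhJ in IV and CAST/EiJ in V. With 1 library left out, the ratios of these sums were 1.07 to 1.15 in III, 1.07 to 1.16 in IV and 1.07 to 1.13 in V.

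Complex II spread more, with a ratio of 1.37 between CAST/EiJ and WSB/EiJ. CAST/EiJ libraries summed to 118, 109 and 118 cpm and PWK/PhJ to 116, 108 and 101 cpm. WSB/EiJ summed to 93.0, 73.3 and 85.9 cpm and A/J to 87.6, 86.8 and 87.5 cpm. CAST/EiJ and PWK/PhJ overlapped each other and lay above both WSB/EiJ and A/J. Sdha made up 67.3% of the complex II sum, so the order of strains followed Sdha. CAST/EiJ was highest and WSB/EiJ lowest with either other scaling too, but without WSB/EiJ replicate 2 the lowest was A/J (ratio 1.32), and with the median of log2 levels the highest was C57BL/6J. Ndufs1, Uqcrc1, Cox4i1 and Atp5b were the most abundant members of complexes I, III, IV and V, with 7.45%, 24.7%, 14.3% and 37.5% of the sum.

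**Figure D3:**
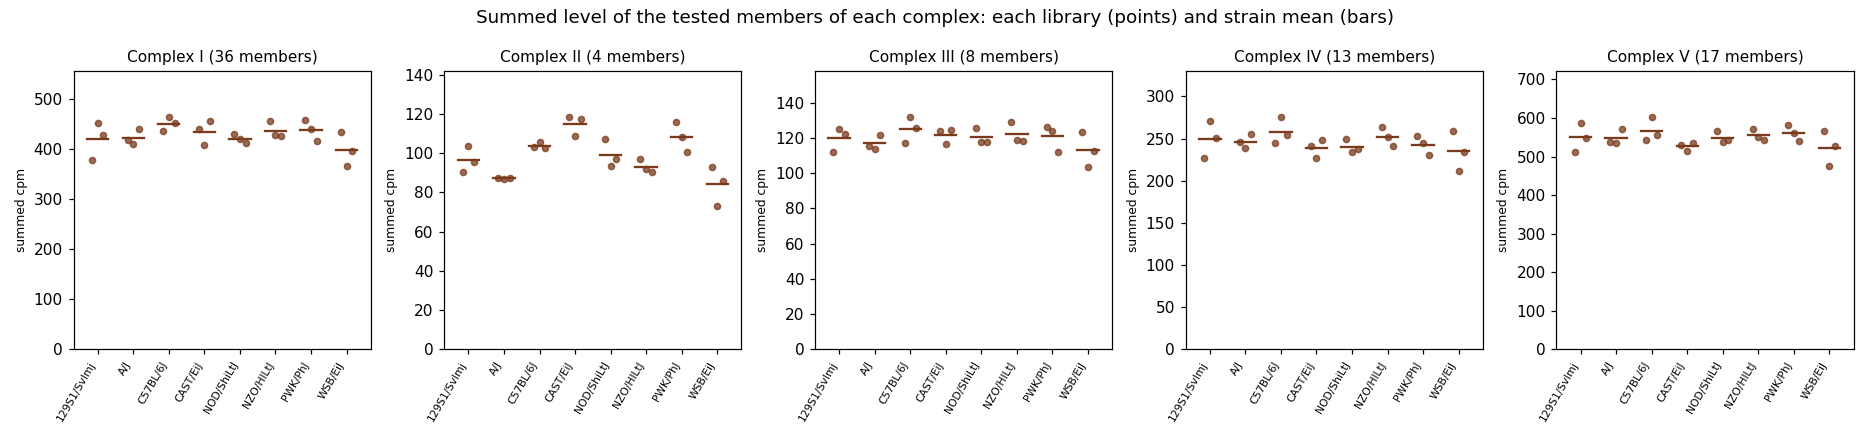
Summed level in cpm of the tested members of each complex in each of the 24 libraries (points), by strain, with the strain mean as a bar. Complex II ran from 73.3 to 118 cpm with a ratio of 1.37 between the CAST/EiJ and WSB/EiJ means, and complex V from 476 to 602 cpm with a ratio of 1.08, where the lowest strain turned from WSB/EiJ to CAST/EiJ with quantile normalization.

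C57BL/6J was above the mean of the other strains for 58 of the 78 members, with a median difference of 0.05 on the log2(cpm + 1) scale where all genes tested had 0.00. Its medians were 0.05, 0.04, 0.07, 0.08 and 0.06 for complexes I to V and kept their sign with both other scalings. WSB/EiJ was above for 20 of the 78, with a median of -0.09 against -0.04 over all genes, and of -0.05 with either other scaling. The share of all genes above the other strains was not worked out for C57BL/6J or WSB/EiJ. Summed over the 78 members, the WSB/EiJ libraries held 1476, 1232 and 1354 cpm in order of replicates. The WSB/EiJ count and medians were not repeated without its replicate 2. By complex the WSB/EiJ medians were -0.10, -0.23, -0.08, -0.03 and -0.05, and that of complex IV turned to 0.01 with either other scaling. The 4 complex II members all lay below the other strains in WSB/EiJ. A/J had a complex II median of -0.19 (-0.21 with either other scaling). CAST/EiJ had medians of 0.10 for complex II and -0.13 for complex V, which kept their sign at 0.13 and -0.12 with median-ratio scaling and 0.14 and -0.11 with quantile normalization.

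Pooled over complexes, correlations across strains had similar medians within and between complexes, which was not tested. Most pairs within a complex, 630, were from complex I, and single complexes differed. Pearson correlations over the 8 strain means on the log2(cpm + 1) scale had a median of 0.10 for 878 pairs within a complex, with quartiles of -0.22 and 0.41, and of 0.11 for 2125 pairs between complexes, with quartiles of -0.20 and 0.41. The median within a complex was 0.10 in complex I, 0.35 in complex II (6 pairs), 0.15 in complex III, 0.04 in complex IV and 0.09 in complex V. All these points share the same libraries and the same scaling, and 8 strain means give each correlation little precision.

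Many subunit genes have copies elsewhere in the genome, most of them processed pseudogenes, and reads that fit both places could be counted for either. A search for genes elsewhere with at least 50% of their 31-base words in a member, added after the data were seen, found 25 copies of 17 members, of which 23 copies of 16 members are in the table. Of the 11 members that passed the F-test and have a copy in the table, 8 still passed when the copies' values were added. How reads were divided between a member and its copy in strains whose sequence differs from the reference was not tested.

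For Cox7a2l the copy Gm6969 moved the other way in 1 strain. Gm6969 measured 2.26, 2.37 and 2.62 cpm in C57BL/6J and 6.33 to 9.68 cpm in the other strains, so C57BL/6J had the highest Cox7a2l and the lowest Gm6969. Added together, Cox7a2l and Gm6969 came to 28.4, 29.0 and 29.3 cpm in C57BL/6J, 29.3, 29.7 and 33.0 cpm in NZO/HlLtJ and 14.9, 16.4 and 16.7 cpm in CAST/EiJ (libraries from lowest to highest). The sums in C57BL/6J reached 29.341 cpm and lay just below those of NZO/HlLtJ, which began at 29.345 cpm. The C57BL/6J difference of the sum fell below the fold minimum at 0.18 (adjusted p = 0.00424). CAST/EiJ remained far below the others at -0.75 (adjusted p = 4.51e-12), and the range of strain means was 0.90 in place of 1.54.

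Ndufs5 and its copy Ndufs5-ps also differed in opposite directions in NOD/ShiLtJ. Ndufs5-ps measured 8.68, 7.80 and 7.88 cpm in NOD/ShiLtJ, where Ndufs5 was lowest, and 4.62 to 8.90 cpm over all libraries. The sum differed between strains by 0.28 (adjusted p = 0.00645), below the fold minimum, and NOD/ShiLtJ stood at 0.07 (adjusted p = 0.394). Atp5g1 with its copy Gm10039 kept NOD/ShiLtJ lowest, at -0.48 (adjusted p = 8.17e-07), with a range of 0.63 in place of 1.16, while its other calls were lost, with NZO/HlLtJ at 0.24 (adjusted p = 0.00265), C57BL/6J at 0.19 (adjusted p = 0.0157) and CAST/EiJ at -0.18 (adjusted p = 0.0129). Atp5md with Gm14539 stood at -0.21 (adjusted p = 0.00292) in CAST/EiJ, below the fold minimum. Cox5b with Gm11273, which is marked protein coding, no longer passed the F-test (adjusted p = 0.0183). Cox7c with its 2 copies stood at -0.17 (adjusted p = 0.0236) in PWK/PhJ, no longer under the threshold of 0.01. Cox6c with Cox6c2 went from 0.61 to 0.59 between strains (adjusted p = 1.33e-09), and its WSB/EiJ difference of -0.317 (adjusted p = 6.64e-06) then fell just under the fold minimum of 0.322.

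Ndufa12 and its copy Gm15920 moved together. Their sum was lower in PWK/PhJ by -0.37 (adjusted p = 3.08e-04) and also in CAST/EiJ by -0.38 (adjusted p = 2.36e-04). Sdhc, Cox4i2 and Atp5e, among the called members, had no copy by this measure.

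**Figure D4:**
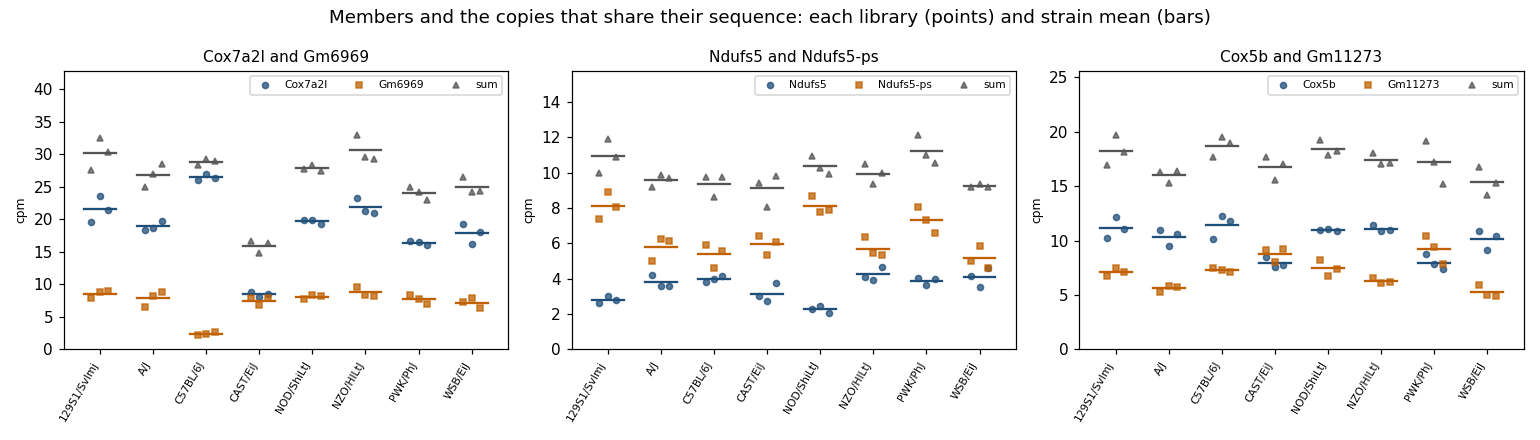
Levels in cpm of members and of copies that share their sequence in each library, by strain. In C57BL/6J Cox7a2l stood at 26.1 to 27.0 cpm and its copy Gm6969 at 2.26 to 2.62 cpm, while CAST/EiJ held 8.02 to 8.81 cpm of Cox7a2l.

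Exons of 31 members overlap an exon of another gene, 12 of them over more than 10% of their length, and whether the counting used the strand of the reads is not stated. Ndufb6 shared 39.0% of its exon length with Smim27 and Ndufa13 30.0% with Tssk6, both on the opposite strand, and these were named for their overlap. Neither passed the F-test (adjusted p = 0.0763 and 0.593). Among the called members, Cox6c overlaps Vps13b over 7.01%, on the opposite strand, and Cox7a2l, Atp5g1, Cox4i2, Sdhc, Ndufs5 and Atp5e have no overlap.

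Promoter sequences, 250 bases before to 50 after the start, were at hand from RefSeq (GRCm38.p6) for 69 members with 74 promoters. They were searched on both strands for 3 motifs of factors known to drive respiratory genes, CGCATGCG (NRF1), CCGGAAGT (ETS factors, GABP among them) and AAGATGGCG (YY1). NRF1's letters were in 12.2% of member promoters and 1.87% of all 32,851 promoters, those of ETS in 6.76% and 3.89%, and those of YY1 in 9.46% and 1.40%. At least 1 motif was in 25.7% of member promoters and in 6.79% of all. A match is a run of letters and not a shown binding site. Members with no listed promoter included Atp5a1, Atp5mpl, Cox4i1, Cox4i2, Cox6a2, Cox6c, Ndufa2, Ndufa4l2, Ndufb9, Ndufs1, Sdhc, Uqcrb, Uqcrc2 and Uqcrq.

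Promoters of 4 members are shown because each gene had libraries of 1 strain apart from all others and holds 1 of the motifs, which the capitals mark. Ndufa8 (PWK/PhJ higher) is at chr2:36049289-36049588, Cox6a1 (C57BL/6J lower) at chr5:115348909-115349208, Cox8a (CAST/EiJ higher) at chr19:7217567-7217866 and Atp5j2 (PWK/PhJ lower) at chr5:145191492-145191791, all on the minus strand and printed 5′ to 3′ along the gene. They are reference sequences, so they show none of the differences between strains. The C57BL/6J level of Cox6a1 is uncertain because part of its sequence also occurs elsewhere, as given with complex IV. The capitals are NRF1's letters in Ndufa8 and Cox6a1, the ETS letters, on the other strand, in Cox8a, and YY1's letters in Atp5j2.
Ndufa8: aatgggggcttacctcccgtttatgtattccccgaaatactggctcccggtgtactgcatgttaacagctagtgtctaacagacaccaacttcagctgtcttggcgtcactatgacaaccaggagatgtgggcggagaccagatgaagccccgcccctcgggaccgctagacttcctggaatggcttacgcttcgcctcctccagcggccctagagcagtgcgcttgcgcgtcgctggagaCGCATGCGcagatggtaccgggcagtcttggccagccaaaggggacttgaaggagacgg
Cox6a1: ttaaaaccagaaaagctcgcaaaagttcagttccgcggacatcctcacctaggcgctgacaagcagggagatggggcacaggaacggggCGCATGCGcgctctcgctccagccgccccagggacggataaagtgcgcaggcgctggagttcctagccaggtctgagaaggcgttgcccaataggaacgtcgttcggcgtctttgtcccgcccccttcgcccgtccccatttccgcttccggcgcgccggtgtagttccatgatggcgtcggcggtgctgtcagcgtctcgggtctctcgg
Cox8a: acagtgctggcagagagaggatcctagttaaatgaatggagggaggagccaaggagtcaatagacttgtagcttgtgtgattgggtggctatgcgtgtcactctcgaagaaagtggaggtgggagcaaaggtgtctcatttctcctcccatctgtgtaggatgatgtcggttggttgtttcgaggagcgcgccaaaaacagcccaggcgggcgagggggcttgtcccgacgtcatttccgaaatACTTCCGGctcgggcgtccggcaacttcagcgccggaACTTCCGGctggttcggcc
Atp5j2: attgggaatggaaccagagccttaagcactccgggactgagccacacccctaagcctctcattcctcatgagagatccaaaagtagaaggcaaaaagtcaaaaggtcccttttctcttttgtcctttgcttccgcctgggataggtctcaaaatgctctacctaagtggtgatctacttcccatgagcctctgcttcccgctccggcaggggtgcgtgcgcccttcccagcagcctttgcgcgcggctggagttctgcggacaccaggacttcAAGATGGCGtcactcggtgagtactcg

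Other genes of the pathway were counted from fixed lists by the same tests, F-test alone first and with the fold minimum second, where all genes tested gave 70.6% and 30.6%. Assembly factors gave 8 and 1 of 15 tested for complex I, 4 and 2 of 4 for complex II, 4 and 2 of 6 for complex III, 14 and 1 of 21 for complex IV, and 2 and 1 of 4 for complex V and its inhibitor. The most variable called gene of each list was Tmem126b (1.10), Sdhaf4 (0.66), Lyrm7 (2.02), Cox14 (0.71) and Atpaf1 (0.64), with the difference between highest and lowest strain on the log2(cpm + 1) scale in brackets. Lyrm7, which helps to insert the iron-sulfur protein of complex III, ranged from 0.640 ± 0.0134 cpm (SD, n = 3) in A/J to 5.66 ± 0.256 cpm (SD, n = 3) in NZO/HlLtJ, while the 8 subunits of that complex had no call. Tmem126b, of the assembly of the complex I membrane arm, was 3.45, 3.46 and 3.01 cpm in PWK/PhJ and 6.65 to 8.69 cpm elsewhere.

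Electron carriers and carriers of adenine nucleotides and phosphate gave 5 and 1 of 7, with Etfa the called gene (0.81, lowest in WSB/EiJ), and the 14 regulators of respiratory genes gave 8 and 3. Among these Ppargc1b, a coactivator of mitochondrial genes, ran from 4.40 ± 0.324 cpm (SD, n = 3) in CAST/EiJ to 23.3 ± 0.977 cpm (SD, n = 3) in A/J. The 20 genes chosen as a measure of mitochondrial mass gave 10 and 2, with Timm44, of the import motor, the most variable (1.42), and their summed level ran from 553 to 649.6 cpm over libraries. The 13 subunits encoded in mitochondrial DNA varied far more than the nuclear members, with 12 of 13 called and a median difference between strains of 0.99, against 0.30 for the 78 nuclear members. Their sum ran from 3560 to 8002 cpm in a library and averaged lowest in PWK/PhJ (3842 ± 290.1 cpm, SD, n = 3) and highest in C57BL/6J (7151 ± 1304 cpm), which overlapped 129S1/Svlmj (7031 ± 408.1 cpm). mt-Co1, the catalytic subunit of complex IV, held 1172, 1182 and 1070.3 cpm in PWK/PhJ and 1847 to 3778 cpm in the other strains. PWK/PhJ lay below all of them, while 5 nuclear members were lower and 2 higher in that strain. mt-Co1 was the most abundant of the 13, with a mean of 2704 cpm, and weighed most in their sum. Single genes differed. In PWK/PhJ 6 of the 13 were called lower (10.3% of all genes tested) and 1 higher (10.2%). mt-Nd3 had its highest strain mean in PWK/PhJ, and mt-Nd4, mt-Cytb and mt-Co3 had theirs in CAST/EiJ.

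Markers of the cell types in the tissue were counted in the same way, beside the same 70.6% and 30.6% of all genes tested. Rod markers gave 7 and 3 of 8 (Sag 1.27), cone markers 6 and 5 of 6 (Pde6c 1.88), bipolar cell markers 5 and 5 of 5 (Prkca 1.70) and Müller glia markers 5 and 1 of 5 (Vim 0.95). Summed over a library they ran from 9619 to 12896 cpm for rods, 189 to 318 cpm for cones (Opn1sw, 109 cpm), 389 to 594 cpm for bipolar cells (Trpm1, 189 cpm) and 726 to 1032 cpm for Müller glia (Glul, 609 cpm). Rod markers averaged highest in C57BL/6J (12494 ± 240.1 cpm, SD, n = 3), while their lowest strains were A/J (10455 ± 211 cpm) and WSB/EiJ (10690 ± 1209 cpm). Bipolar cell markers averaged highest in WSB/EiJ (565 ± 38.5 cpm, SD, n = 3). Vim, the called Müller glia marker, ran from 16.0 to 54.4 cpm. Its highest strain mean was in NOD/ShiLtJ, which holds a lens-rich library, and the part of lens tissue in this was not tested. The part of cell composition in the members' differences was not tested.

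Tissues beside the retina were also present in small amounts. Retinal pigment epithelium markers gave 7 and 7 of 7 (Ttr 2.21), with Rgr the most abundant at 12.3 cpm, a sum of 10.8 to 89.5 cpm, highest on average in WSB/EiJ (66.7 ± 19.8 cpm, SD, n = 3), and 1 of the 8 at 0 in some library. Blood markers gave 3 and 3 of 4 (Hba-a2 1.99), with Hbb-bs at 9.90 cpm and a sum of 7.45 to 30.7 cpm. Lens markers gave 0 of 12 by limma, and 0 of 12 at an unadjusted p under 0.05, with Cryaa the most abundant at 74.3 cpm, none at 0 in any library, and the 3 high libraries in different strains. The 1 muscle marker tested, Acta1, did not pass (adjusted p = 0.0106). With the 3 lens-rich libraries left out, 36 of 78 members passed the F-test alone and 9 were called, where all genes tested gave 72.3% and 31.9%. The part of these tissues in the members' differences was not tested.

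Nnt, a proton-pumping transhydrogenase with a known deletion of some exons in C57BL/6J, was read as a check of the strain labels. It measured 4.81, 4.72 and 4.93 cpm in C57BL/6J and 3.22 to 7.74 cpm over all libraries, with strain means from 3.41 ± 0.193 cpm (SD, n = 3) in NZO/HlLtJ to 7.45 ± 0.306 cpm (SD, n = 3) in NOD/ShiLtJ. C57BL/6J lay inside this range, so the value for the whole gene did not mark out that strain.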

How the data were processed

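The values were cpm: the authors scaled reads assigned to genes to each library's total read count and added 0.0001 before the table was deposited. Reads had been aligned with STAR to GRCm38 (mm10), the C57BL/6J reference assembly, and assigned to genes in Partek, with versions not given. The effect of strain sequence differences on alignment was not tested, and whether counting used strand is not stated. Columns summed to 332472 to 366570 cpm, the part of the reads that the listed genes hold. Depth was read from the most frequent low value, taken as the cpm of 1 read although some values are fractions of it, and the study's methods state a higher mean for the reads sequenced. Labels were used as spelled.

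The 16,400 genes averaging at least 0.5 cpm were fitted as log2(cpm + 1) with limma 3.58.1 in R 4.3.3, with strain as the only term and a variance trend in the mean. An F-test covered the 8 strain means, and contrasts set each strain against the mean of the 7 others. P-values were Benjamini-Hochberg adjusted over all genes tested, with a threshold of 0.01. Minimum differences were 1.5-fold in cpm + 1 between strains and 0.32 on the log2(cpm + 1) scale in contrasts. The procedure was also run on simulated data with normal errors and set differences. Those data hold no lens-rich libraries, no reads shared with copies and no effect of the reference sequence. The run therefore does not bear on such effects. Tables and figures were made in Python 3.11.15 with pandas 2.3.3, numpy 2.4.6 and matplotlib 3.10.9.

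Members and lists were chosen with earlier results of these data known. Named genes were, in each complex, the 2 called members with the widest range of strain means, the most abundant and the least variable member. To these were added the called member with the largest difference in either direction in each strain, isoform families, Nnt, and the most variable called gene of each list. Other genes were named after their values were seen. A called member and a marker gene are not reported here. Coordinates count from 1, and the end is the table's stop minus 1. Exon lengths, overlaps and copies came from GENCODE models on GRCm38, and 2 members were matched to them by position alone. An exon length merges the exons of all annotated transcripts of a gene.

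Alternatives were a pseudocount of 0.1 cpm, quantile normalization, median-ratio scaling, no filter or one at 5 cpm, no variance trend, Storey's q-value, other fold minimums, classical strains as the reference, and leaving out each library. Adding copies, and leaving out libraries with over 200 cpm of lens markers, were chosen after seeing the data, as were leaving out libraries for the complex sums and complex II members and other scalings for the correlations.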

Additional observations from a re-analysis of the deposited data

How the results depend on the processing

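With copies added, Ndufs5 in NOD/ShiLtJ turned from -0.51 to 0.07, and the WSB/EiJ median of complex IV turned from -0.03 to 0.01 with either other scaling. The strains that were highest and lowest for the complex sums also changed, as given with those sums. Between the 8 strains, 8 members were called, and 5 with a mean of at least 5 cpm, where 3 of the 8 are not tested, 33 with no fold minimum and 3 with minimums of 2-fold and 1.5-fold. By the F-test alone 33 members passed, and 60 with Storey's q-value, which reaches to an unadjusted p of 0.184 and passed 91.7% of all genes tested. Calls in 1 strain were 17 higher and 21 lower, 49 and 45 with no fold minimum, and 2 and 4 with the larger minimums.

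With no fold minimum the members called were 7 in 129S1/Svlmj, 7 in A/J, 20 in CAST/EiJ, 8 in NOD/ShiLtJ, 5 in NZO/HlLtJ, 23 in PWK/PhJ and 15 in WSB/EiJ. With the larger minimums they were 1 in A/J, 2 in C57BL/6J, 1 in CAST/EiJ, 2 in NOD/ShiLtJ and 0 in NZO/HlLtJ, PWK/PhJ and WSB/EiJ, where limma had 5, 23 and 15 without a fold minimum. 129S1/Svlmj had 2 with a pseudocount of 0.1 cpm, 1 with quantile normalization and 1 without the lens-rich libraries. A/J had 2 at a mean of at least 5 cpm and 2 against the classical strains, NOD/ShiLtJ 1 at a mean of at least 5 cpm, and NZO/HlLtJ 4 with a pseudocount of 0.1 cpm and 1 with copies added. With the median of log2 levels in place of the sum, the ratio of highest to lowest strain was 1.2503 for complex IV and 1.19 for complex V. Except for the fold minimums, the filter and Storey's q-value, which change the calls by construction, the cause was not tested.

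Leaving out each library in turn gave 8 to 11 members called between the strains, 30 to 38 by the F-test alone, 16 to 19 higher and 18 to 23 lower calls. By strain, WSB/EiJ had 4 to 9 members called, CAST/EiJ 7 to 9, PWK/PhJ 5 to 8, C57BL/6J 6 to 7, A/J 2 to 4, NOD/ShiLtJ 3 to 4, 129S1/Svlmj 0 to 2 and NZO/HlLtJ 1 to 2. The ratio of complex sums was 1.09 to 1.18 for complex I, 1.32 to 1.44 for II, 1.07 to 1.15 for III, 1.07 to 1.16 for IV and 1.07 to 1.13 for V.

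With 3 mice a strain, small differences can be missed, and an adjusted p above the threshold does not show that strains were alike. The study's methods put libraries into sequencing pools by randomized blocks, which the labels do not give. Strain and any batch of dissection or RNA extraction cannot be told apart. Depth limits Cox6a2 and Cox7b2, whose libraries held a few reads at most.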
